A study of Homo sapiens with 9 samples.

Results

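The kynurenine pathway was examined as 10 genes of the 60649 gene identifiers in the count table. These were the enzymes IDO1, TDO2, AFMID, KYNU, KMO, HAAO, QPRT, KYAT1 and KYAT3, and the receptor AHR. They were chosen by symbol, except that KYNU was picked because it was lower than NC in both SM2 and SM4, so its values against NC are given as a description without a test. The samples were OVCAR5 cells, a human ovarian cancer cell line, profiled by bulk RNA sequencing in 3 groups of 3 libraries. By the labels NC is the control, and SM2 and SM4 are knockdowns of METTL3, the enzyme that writes N6-methyladenosine (m6A) on mRNA. All cells had received lentivirus and had been kept under puromycin selection. The labels call the control parental, whereas the study's methods describe a control short hairpin RNA. The labels do not say which METTL3 hairpin is SM2 and which is SM4, and neither source says whether a line was 1 clone. For the SM4 libraries, one label field names other members of the OVCAR series while the cell line field gives OVCAR5. Nothing says that the 3 libraries of a group came from separate cultures, so p-values measure only the spread between these libraries, which may be technical.

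Tryptophan is opened by IDO1 or TDO2, and AFMID then releases kynurenine. Kynurenine can be hydroxylated by KMO, cut by KYNU to anthranilic acid, or turned into kynurenic acid by the aminotransferases KYAT1 and KYAT3. KYNU also acts after KMO, and HAAO and QPRT carry the products on towards NAD. Kynurenine and kynurenic acid can bind AHR, a transcription factor that drives CYP1A1, CYP1B1 and other genes of xenobiotic metabolism. In tumours the pathway is best known for IDO1, which interferon-gamma induces and which depletes tryptophan around T cells.

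Libraries held between 44103272 and 63693728 counted reads, so 1 CPM (a count scaled to library size) stood for 44.1 to 63.7 reads. METTL3 was at 36.2, 34.4 and 36.6 CPM in NC, at 37.0, 39.8 and 40.0 CPM in SM2 and at 60.6, 57.5 and 62.4 CPM in SM4. It was therefore not lower in the libraries labelled as knockdown, and it was higher in SM4 (log2 fold change 0.75 ± 0.0539, standard error, adjusted p = 2.21e-09, edgeR quasi-likelihood test), so every direction below refers to libraries as labelled. With SM4 as the reference METTL3 is lower in both other groups, and the fold changes that the study lists for METTL3, MAOB and PECAM1 are found in these files only with SM4 as the control, NC as its first METTL3 hairpin and SM2 as its second. The labels are kept here as given, so which libraries are the control is in doubt, and "against NC" below names a pair of label groups and not knockdown against control. With SM4 as the reference, each difference between SM4 and another group turns its sign and keeps its size and test. SM2 against NC would then compare one METTL3 hairpin with the other, and not a knockdown with a control. On that reading KYNU was higher than in SM4 in both other groups. QPRT and IDO1 were then lower in NC, while SM2 was not distinguished from SM4. Of 8 epithelial markers only WT1 stayed at or under 15 counts in every library, and their summed level was 9920 to 10300 CPM in NC, 11300 to 11800 in SM2 and 10900 to 11500 in SM4. KRT8, KRT18 and KRT19 carried most of that sum and were called higher in both groups against NC. CDH1 was called lower in both, at 812, 682 and 631 CPM in NC, SM2 and SM4. In the same order EPCAM was at 706, 625 and 656 CPM, MUC16 at 8.39, 23.4 and 11.0 CPM and PAX8 at 8.278, 8.775 and 8.513 CPM. Of 7 macrophage and leukocyte markers, listed because these cells express KYNU and IDO1, 5 stayed at or under 15 counts, with TYROBP and CD163 at 0. CD14 and LYZ carried the summed level of that list, which was 41.1 to 45.2 CPM in NC, 59.0 to 62.9 in SM2 and 41.3 to 44.5 in SM4. Its members differed, with CD14 at 5.76, 8.47 and 10.3 CPM and LYZ at 36.7, 51.9 and 32.7 CPM in NC, SM2 and SM4. Of 5 fibroblast and endothelial markers, COL1A2, DCN and CDH5 stayed at or under 15 counts, and the list summed to 27 to 30.2 CPM in NC, 30.7 to 34.9 in SM2 and 34.3 to 39.3 in SM4. PECAM1 was at 5.47, 8.22 and 13.7 CPM and COL1A1 at 23, 24.1 and 22.9 CPM in the same order. The part of these marker levels in the results below was not tested.

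The promoters of KYNU and QPRT are shown because these enzymes differed from NC in opposite directions, KYNU having been picked for its difference. IDO1 had larger log2 fold changes than QPRT but no promoter window. Each window holds 250 bases before and 50 after the RefSeq start on GRCh38.p14, plus strand, at chr2:142877414-142877713 for KYNU and chr16:29678930-29679229 for QPRT. Capitals mark matches to the 4 motifs searched on both strands.
KYNU: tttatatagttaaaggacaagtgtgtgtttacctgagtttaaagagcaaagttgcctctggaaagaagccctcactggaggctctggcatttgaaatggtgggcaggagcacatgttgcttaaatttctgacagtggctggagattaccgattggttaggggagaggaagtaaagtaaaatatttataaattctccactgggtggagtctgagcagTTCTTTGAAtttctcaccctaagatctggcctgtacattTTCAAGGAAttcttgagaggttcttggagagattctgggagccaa
QPRT: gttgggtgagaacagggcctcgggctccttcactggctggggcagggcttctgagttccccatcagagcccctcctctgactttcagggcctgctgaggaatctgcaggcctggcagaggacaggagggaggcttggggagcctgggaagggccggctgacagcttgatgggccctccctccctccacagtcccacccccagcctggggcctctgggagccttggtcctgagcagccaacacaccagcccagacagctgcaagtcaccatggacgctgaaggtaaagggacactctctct
The motifs were the AHR core GCGTG, the AP-1 site TGANTCA, the interferon response element (GAAA, any 2 bases, GAAA) and the STAT site TTCNNNGAA, which are present in 36.3%, 7.76%, 3.65% and 7.88% of 27305 promoter windows of this length. KYNU held 2 matches, TTCTTTGAA and TTCAAGGAA, both to the STAT letters, and none to the other motifs. QPRT held no match to any of them. The KYNU window had a GC content of 42.3% and the QPRT window 64%, against a median of 58.3% over all windows. Of the 10 members 9 had a window in the table, IDO1 being the one without. Among the other members AFMID and AHR each held 1 AHR core, and TDO2 held 1 AP-1 site. These matches are a description of letters and say nothing about binding.

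KYNU (ENSG00000115919.15, chromosome 2, 142877657 to 143055833, hg38) was picked for its difference from NC in both other groups. Its level was 68.2, 67.9 and 64.2 CPM in the NC libraries, 27.1, 27.8 and 28.4 CPM in SM2, and 24.3, 22.8 and 22.3 CPM in SM4. All 6 libraries labelled SM2 or SM4 lay below every NC library, and all SM4 libraries lay below every SM2 library. Group means were 66.8 ± 2.23 (SD, n = 3), 27.8 ± 0.642 and 23.1 ± 1.06 CPM, so that SM2 stood at 41.6% and SM4 at 34.7% of NC. The fitted log2 fold changes against NC were −1.26 in SM2 and −1.53 in SM4, and these are the values that the gene was picked on. Both share the same 3 NC libraries. In these bulk samples fewer cells that carry a transcript and less of it per cell cannot be told apart. KYNU in SM4 against SM2 was not part of the choice, and there it fell by 0.26 on the log2 scale (standard error 0.0563, adjusted p = 0.00302), to 83.3% of the SM2 level. That difference kept its direction and its call in every alternative run, between −0.30 and −0.24 on the log2 scale, with a highest adjusted p of 0.0249. Counts for KYNU were 1144 to 3759 per library, and it shares 0.699% of its exon bases with another gene.

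**Figure D1:**
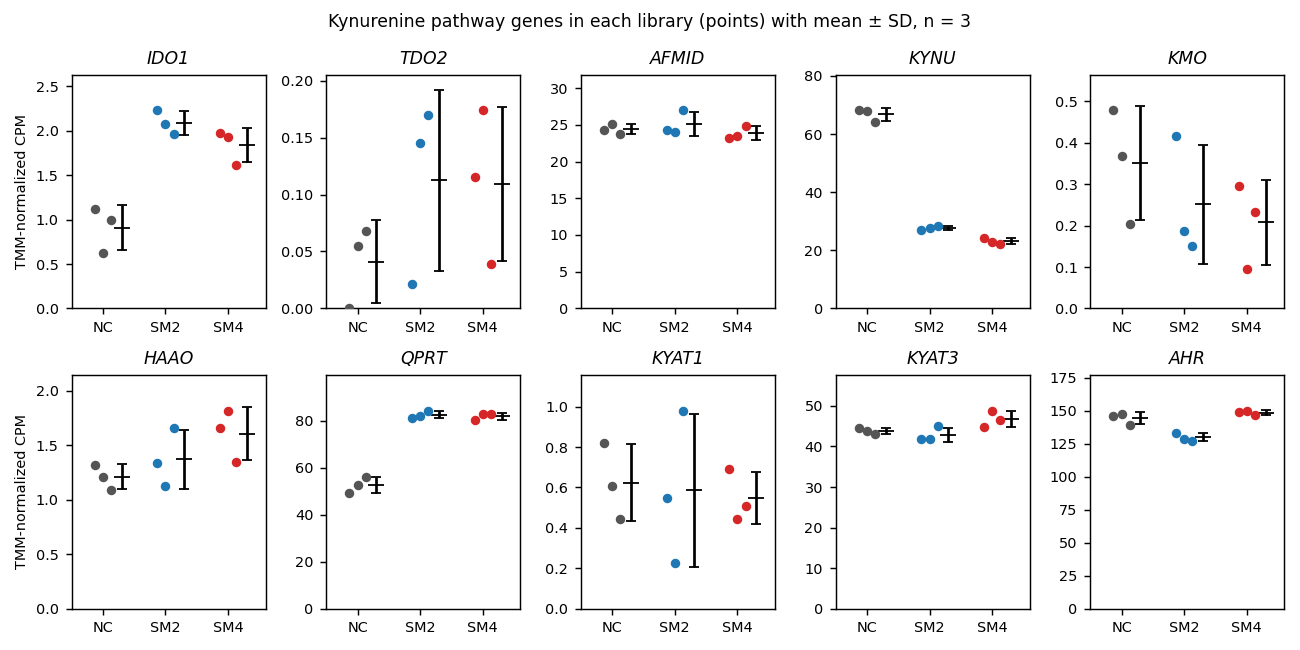
Level of each of the 10 genes in TMM-normalized CPM (vertical axis, from 0, a separate scale for each gene) in NC, SM2 and SM4. Points are libraries and black bars are the mean ± SD (n = 3). KYNU lies near 66.8 CPM in NC and at 22.3 to 28.4 CPM in the other libraries, IDO1 and QPRT are higher in SM2 and SM4 than in NC, and TDO2, KMO and KYAT1 stay below 1 CPM in every library.

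At the entry of the pathway, IDO1 was low, and higher in SM2 and SM4 than in NC. It was at 1.12, 0.625 and 0.990 CPM in NC, at 2.23, 2.08 and 1.96 CPM in SM2 and at 1.97, 1.93 and 1.62 CPM in SM4. No SM2 or SM4 library overlapped an NC library, although the values rest on 34 to 58 reads per library in NC and 83 to 122 in the others. IDO1 (ENSG00000131203.13, chromosome 8, 39902275 to 39928790) rose by a log2 fold change of 1.20 ± 0.214 in SM2 (adjusted p = 0.00029) and of 1.03 ± 0.214 in SM4 (adjusted p = 0.00133). SM4 and SM2 were not distinguished for IDO1 (log2 fold change −0.18, 95% interval −0.567 to 0.208, adjusted p = 0.633). It shares 3.44% of its exon bases with another gene. TDO2, the liver enzyme for the same step, had 0 to 4 reads per library in NC, 1 to 9 in SM2 and 2 to 11 in SM4, which was too few for a test. AFMID, the formamidase that follows, was at 24.4 ± 0.657, 25.1 ± 1.66 and 23.9 ± 0.896 CPM in NC, SM2 and SM4. Its intervals against NC ran from −0.0868 to 0.165 in SM2 and from −0.159 to 0.0914 in SM4 on the log2 scale, and neither difference passed the test.

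On the branch from kynurenine towards NAD, QPRT was higher than in NC in both groups, and KMO and HAAO did not pass the test. QPRT, which turns quinolinic acid into nicotinic acid mononucleotide, was at 49.2, 52.8 and 56.1 CPM in NC, at 81.3, 82.2 and 84.3 CPM in SM2 and at 80.2, 82.9 and 82.7 CPM in SM4. All SM2 and SM4 libraries lay above the NC libraries, and SM2 and SM4 overlapped each other. QPRT (ENSG00000103485.19, chromosome 16, 29663279 to 29698699) rose by 0.65 ± 0.0509 on the log2 scale in SM2 (adjusted p = 1.03e-08) and by 0.63 ± 0.0507 in SM4 (adjusted p = 1.09e-08), to 157% and 155% of NC. Between SM4 and SM2 its log2 difference was −0.01, with an interval of −0.11 to 0.0856. KMO, the kynurenine hydroxylase, had only 6 to 21 reads per library, and its log2 fold changes of −0.47 in SM2 and −0.73 in SM4 had intervals of −1.48 to 0.535 and −1.74 to 0.274. KMO also shares 28.4% of its exon bases with OPN3 on the other strand, and the strand setting of the counting was not given in the sources used here, so its few reads are uncertain. HAAO, which makes the precursor of quinolinic acid, was at 1.32, 1.21 and 1.09 CPM in NC, 1.34, 1.12 and 1.66 CPM in SM2 and 1.66, 1.82 and 1.35 CPM in SM4. Its SM4 libraries lay above the NC libraries, but the log2 fold change of 0.42 ± 0.208 did not pass (adjusted p = 0.174).

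Of KYAT1 and KYAT3, which make kynurenic acid, KYAT3 was at the higher level. It was at 43.8 ± 0.729 CPM in NC, 42.9 ± 1.79 in SM2 and 46.7 ± 2.00 in SM4. Neither difference from NC passed the test, with log2 fold changes of −0.03 in SM2 (interval −0.134 to 0.0744) and 0.09 in SM4 (interval −0.00885 to 0.198). KYAT3 in SM4 against SM2 was at 0.12 (adjusted p = 0.14), and was called only when SM2 replicate 3 was left out (0.15, adjusted p = 0.046). KYAT1 had 11 to 52 reads per library, with intervals of −0.854 to 0.731 and −0.957 to 0.613 against NC. It shares 57.3% of its exon bases with ENSG00000286112 on the same strand, so its counts are uncertain as well. KYAT3 shares 16.3% with RBMXL1.

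AHR, the receptor, differed between SM2 and SM4. It was at 146.1, 147.6 and 139.0 CPM in NC, at 133.4, 128.9 and 127.4 CPM in SM2 and at 148.7, 150.2 and 146.7 CPM in SM4. SM2 lay below both other groups without overlap, while SM4 overlapped NC. AHR (ENSG00000106546.14, chromosome 7, 16916359 to 17346152) fell in SM2 by 0.15 on the log2 scale (standard error 0.0426, adjusted p = 0.0136). That call was lost without NC replicate 1 (−0.14, adjusted p = 0.073), without NC replicate 2 (−0.13, adjusted p = 0.0782) and without SM2 replicate 2 (−0.15, adjusted p = 0.0551). In SM4 the log2 fold change against NC was 0.04 (interval −0.0402 to 0.126, adjusted p = 0.55). SM4 was above SM2 by 0.19 ± 0.0425 (adjusted p = 0.00374), or 114% of the SM2 level. AHR shares 29.5% of its exon bases with ENSG00000283321, which had 0 reads in every library.

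Leaving KYNU aside, 3 of the 8 other members that could be tested passed in SM2 against NC, with IDO1 and QPRT higher and AHR lower. Over all 19674 genes tested the share called was 22.3%, with 12% higher and 10.3% lower. In SM4 against NC 2 of the 8 passed, IDO1 and QPRT, both higher, against 21.2% of all genes, with 11% higher and 10.2% lower. In SM4 against SM2, where KYNU counts too, 2 of 9 passed, AHR higher and KYNU lower, against 12.8% of all genes, with 6.04% higher and 6.76% lower. The median log2 fold change of the 8 members was 0.00442 in SM2 and 0.0688 in SM4, and that of all genes was −0.00373 and −0.00109. With so few members these counts are not read as a difference from all genes.

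**Figure D2:**
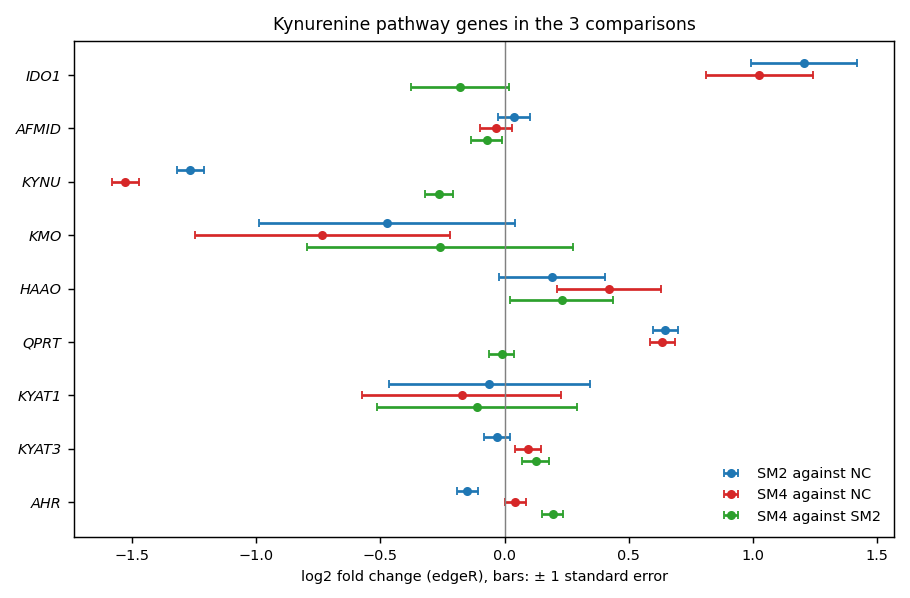
Log2 fold change of 9 members (horizontal axis, bars ± 1 standard error) for SM2 and for SM4, each against NC, and for SM4 against SM2. KYNU lies at −1.26 and −1.53 against NC, IDO1 at 1.20 and 1.03 and QPRT at 0.65 and 0.63, while KMO and KYAT1 have the widest bars. TDO2 is left out because it was not tested.

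The place of KYNU among the members by level depends on the length used. Per kilobase of coding sequence in NC, QPRT was at 59.2 ± 3.89 CPM (SD, n = 3) and AHR at 56.7 ± 1.81, a pair that did not differ beyond their spread, followed by KYNU at 47.9 ± 1.60, KYAT3 at 32.1 ± 0.535 and AFMID at 26.9 ± 0.723. HAAO at 1.41, IDO1 at 0.753, KYAT1 at 0.493, KMO at 0.240 and TDO2 at 0.0338 came far below. On the same scale KYNU was at 19.9 ± 0.460 CPM in SM2 and 16.6 ± 0.757 in SM4, below AFMID at 27.6 ± 1.83 and 26.3 ± 0.986. Its canonical transcript has 15151 bases, of which 1395 are coding. Per kilobase of whole transcript KYNU was at 4.41 CPM in NC, below KYAT3 at 24.1, QPRT at 23.96, AHR at 23.1 and AFMID at 14.5, and it was below AFMID on that scale in SM2 and SM4 too. IDO1 in SM2, at 1.73 per kilobase of coding sequence, was near HAAO at 1.60.

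METTL3 modifies adenosines mostly in GGACT and related letters. The canonical KYNU transcript held 10 GGACT, or 0.66 per kilobase, and 31.5% of 13785 genes had a lower density, the median being 0.935. KYAT3 had 1.65 per kilobase, KMO 1.20, QPRT 0.909, AHR 0.801, HAAO 0.796 and IDO1 0.541, and KYAT1 had none. These are letters in the reference, and m6A on these transcripts was not measured here.

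Around the pathway, 41 of 48 listed genes could be tested. Of these, 15 were called in SM2 against NC, 9 higher and 6 lower, and 16 in SM4, 9 higher and 7 lower, against 22.3% and 21.2% of all genes tested. The SM2 count fell to 9 without NC replicate 1 and to 9 without NC replicate 2, and the SM4 count to 10 without SM4 replicate 1. In SM4 against SM2 10 were called, 4 higher and 6 lower, against 12.8% of all genes, with 6.04% higher and 6.76% lower. The 7 genes left out for low counts were IDO2, ACMSD, TPH1, TPH2, DDC, INMT and CYP1A2. Medians of the 41 were −0.000717, −0.041 and −0.0441 in log2 fold change for SM2 and SM4 against NC and for SM4 against SM2. The lists were chosen with earlier results of these data known. Their counts, here and for single lists below, are therefore not read as a difference from all genes.

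Among 7 tested AHR partners and targets, 4 were called in SM2 and 4 in SM4 (22.3% and 21.2% of all genes), with ALDH3A1 higher and CYP1B1, TIPARP and NQO1 lower in both. With so few genes, chosen as stated above, these counts are not read as a difference from those shares. CYP1B1, a monooxygenase that AHR induces, was at 220.4, 208.6 and 213.8 CPM in NC, at 121.4, 116.6 and 108.6 CPM in SM2 and at 88.2, 90.5 and 86.4 CPM in SM4. The groups did not overlap, with the order NC, SM2, SM4 from high to low that KYNU also had. PTGS2, BIRC3 and THBD, named below, had that order without overlap too, so it was not particular to CYP1B1. CYP1B1 fell by 0.89 (standard error 0.047, adjusted p = 3.5e-11) in SM2 and by 1.28 (standard error 0.0474, adjusted p = 1.03e-13) in SM4 on the log2 scale, and SM4 was lower than SM2 by −0.39 (adjusted p = 7.87e-06). ALDH3A1, an aldehyde dehydrogenase, went the other way, at 86.8, 80.2 and 91.1 CPM in NC, 111.6, 114.8 and 119.7 CPM in SM2 and 166.9, 173.3 and 183.0 CPM in SM4. It rose by 0.42 ± 0.0519 in SM2 and 1.02 ± 0.0518 in SM4 (adjusted p = 4.09e-06 and 1.32e-11). NQO1, a quinone reductase also controlled by other factors, was at 494.6 ± 6.26 CPM in NC, 381.0 ± 16.3 in SM2 and 439.3 ± 11.7 in SM4, with log2 fold changes of −0.38 and −0.17 (adjusted p = 1.03e-06 and 0.00448). TIPARP, an AHR-induced repressor of AHR, was lower by −0.21 and −0.24 (adjusted p = 0.0275 and 0.014). In SM2 its call was lost without NC replicate 1 (−0.21), NC replicate 2 (−0.17) or SM2 replicate 3 (−0.12), or with only the libraries of the comparison fitted (−0.21), and in SM4 without NC replicate 1 (−0.23), NC replicate 2 (−0.20), SM4 replicate 1 (−0.22) or SM4 replicate 3 (−0.22). CYP1A1, the best known AHR target, was at 2.25, 2.32 and 2.76 CPM and AHRR at 1.46, 1.53 and 1.29 CPM in NC, SM2 and SM4, and neither passed in any comparison. CYP1B1 shares 11.3% of its exon bases with its antisense gene, NQO1 19.4% with another gene and AHRR 58.7% with PDCD6-AHRR.

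**Figure D3:**
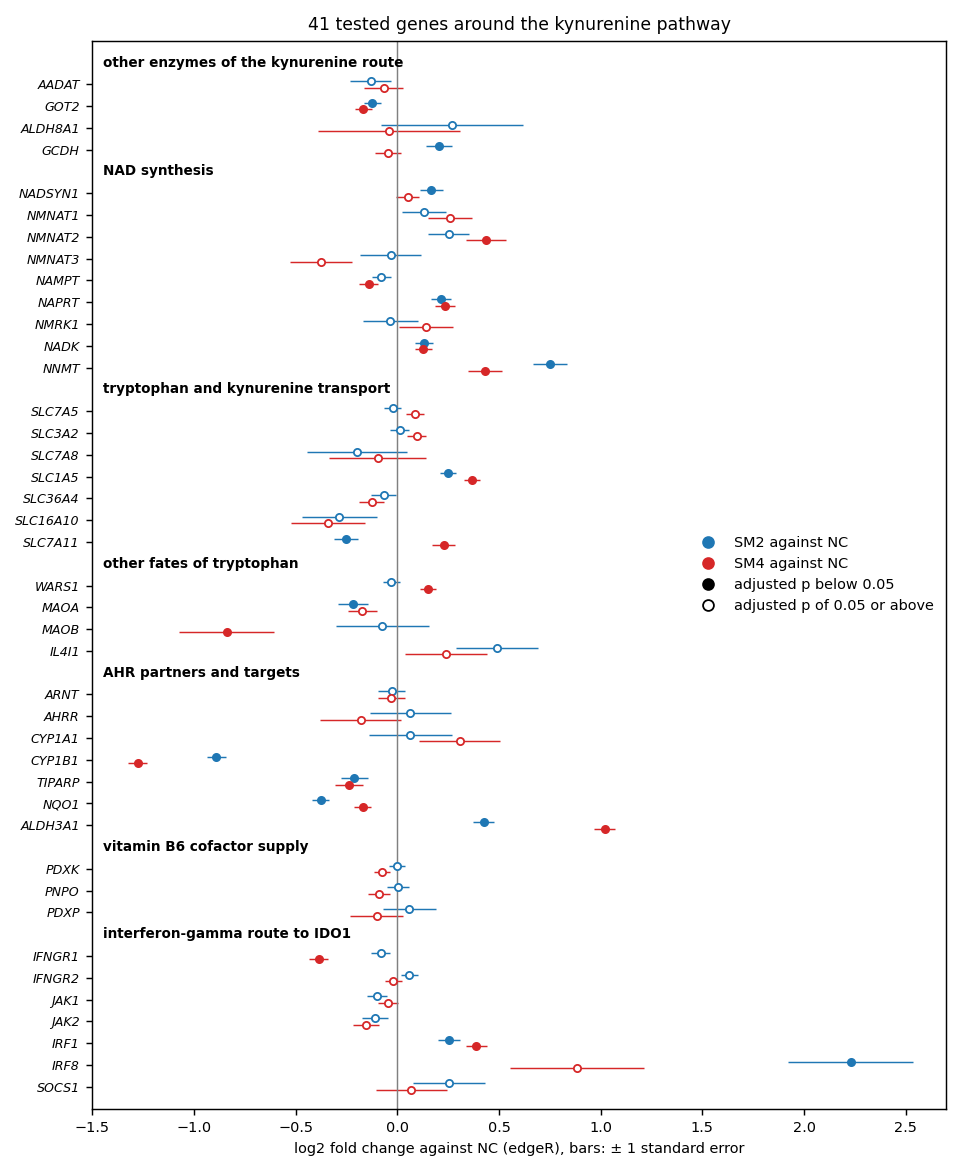
Log2 fold change against NC (horizontal axis, bars ± 1 standard error) of the 41 tested genes around the pathway, grouped by list, for SM2 and SM4. Filled points had an adjusted p below 0.05 and open points did not. CYP1B1 is lowest among the AHR genes at −0.89 and −1.28, ALDH3A1 is at 0.42 and 1.02, and IRF8 in SM2 lies farthest to the right at 2.23.

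Of 7 genes on the interferon-gamma route to IDO1, 2 were called in SM2 and 2 in SM4, near the 22.3% and 21.2% of all genes. IRF1, a factor that can drive IDO1, was at 48.7, 48.4 and 51.9 CPM in NC, at 59.1, 56.3 and 62.1 CPM in SM2 and at 68.0, 62.6 and 64.4 CPM in SM4. It rose by 0.25 ± 0.0536 in SM2 (adjusted p = 0.00154) and by 0.39 ± 0.0532 in SM4 (adjusted p = 1.51e-05). IRF1 shares 22.9% of its exon bases with IRF1-AS1, and whether it had a part in the IDO1 differences was not tested. IFNGR1, a chain of the interferon-gamma receptor, was at 103.4 ± 4.35, 97.6 ± 2.13 and 79.0 ± 3.59 CPM, which gave −0.39 in SM4 against NC (adjusted p = 4.48e-06) and −0.30 against SM2 (adjusted p = 0.000157). IRF8, named here after its values were seen, was at 0.307 ± 0.119 CPM in NC, 1.43 ± 0.212 in SM2 and 0.561 ± 0.0372 in SM4. IRF8 rose by 2.23 ± 0.309 in SM2 (adjusted p = 1.89e-05), on 10 to 21 reads per library in NC and 57 to 84 in SM2. In SM4 its log2 fold change of 0.88 did not pass (adjusted p = 0.0622). These p-values do not allow for its being named on its values, so it is given as a description.

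In NAD synthesis, 4 of 9 genes were higher in SM2, and 4 were higher and 1 lower in SM4. Of all genes 12% were higher in SM2, and 11% higher and 10.2% lower in SM4. For the same reason the counts of this list are not read as a difference from those shares. NNMT, which methylates nicotinamide and so removes it from NAD salvage, was at 12.3, 11.8 and 11.6 CPM in NC, at 17.5, 20.2 and 22.2 CPM in SM2 and at 16.0, 15.4 and 16.6 CPM in SM4. Its groups did not overlap, and it rose by 0.75 ± 0.0833 in SM2 (adjusted p = 1.17e-06) and by 0.43 ± 0.0834 in SM4 (adjusted p = 0.000665). NAPRT, which makes the same mononucleotide as QPRT from nicotinic acid, rose by 0.21 and 0.23 (adjusted p = 0.00377 and 0.00172), though it shares 30.1% of its exon bases with another gene. NMNAT2, an adenylyltransferase, rose in SM4 by 0.44 (adjusted p = 0.00239), and in SM2 it was called only without NC replicate 3 (0.375) or SM2 replicate 3 (0.296). NAMPT, the salvage enzyme, fell in SM4 by 0.14 (adjusted p = 0.0348), a call that was lost when NC replicate 1 or 2, SM2 replicate 2 or any of the SM4 libraries was left out (−0.154 to −0.117, adjusted p up to 0.175), under upper-quartile normalization (−0.124) and with no filter on low counts (−0.139). NADK, which phosphorylates NAD, was at 0.13 in both groups. Its SM2 call was lost without NC replicate 1 or 2, SM2 replicate 2 or SM4 replicate 1 or 3 (0.119 to 0.136), with no filter (0.134) or with only the libraries of the comparison fitted (0.133), and its SM4 call without any one of the NC or SM4 libraries or SM2 replicate 2 (0.114 to 0.143), or with no filter (0.131). NADSYN1, the NAD synthetase, was at 0.17 in SM2, a call lost without any one of the NC libraries or SM2 replicate 2 or 3 (0.118 to 0.179), or with only the libraries of the comparison fitted (0.168).

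Of 7 transporters of tryptophan and kynurenine, SLC1A5 and SLC7A11 were called in SM2 and in SM4 against NC, near the 22.3% and 21.2% of all genes. SLC1A5, a neutral amino acid exchanger, rose by 0.25 ± 0.0401 in SM2 and 0.37 ± 0.040 in SM4 (adjusted p = 0.0001 and 7.69e-07). SLC7A11, the cystine and glutamate exchanger, was at 179.7 ± 13.8, 150.8 ± 11.1 and 210.3 ± 9.82 CPM in NC, SM2 and SM4, so that it was lower in SM2 (−0.25, adjusted p = 0.00321) and higher in SM4 (0.23, adjusted p = 0.0073). The SM4 call was lost without NC replicate 3 (0.16) and without SM4 replicate 1 (0.19), whereas SM4 against SM2 passed (0.48 ± 0.0586, adjusted p = 7.49e-06). SLC7A5, the main tryptophan carrier, was at 1052 CPM in NC and did not pass in any comparison of the main fit. In SM4 against NC it was called only with the libraries of the comparison fitted alone (0.0821, adjusted p = 0.0483) or without SM2 replicate 3 (0.0831, adjusted p = 0.0379).

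Of the 3 genes of vitamin B6 supply, the cofactor of KYNU and of the aminotransferases, 0 were called in any comparison by edgeR. At an unadjusted p under 0.05 edgeR also gave 0, and DESeq2 called 0 as well. Of all genes, edgeR called 22.3% in SM2, 21.2% in SM4 and 12.8% in SM4 against SM2. With lists of 3 or 4 genes, the counts in this paragraph are not read as a difference from those shares. Of 4 tested genes of other tryptophan fates, MAOA was lower in SM2 (−0.22, adjusted p = 0.0348), and in SM4 WARS1, the tryptophanyl-tRNA synthetase, was higher (0.15, adjusted p = 0.0105) and MAOB lower (−0.84, adjusted p = 0.0133). The MAOA call was lost without NC replicate 1 or 2 or any one of the SM2 libraries (−0.24 to −0.173), with no filter (−0.217) and with only the libraries of the comparison fitted (−0.219). WARS1 lost its call without SM4 replicate 2 (0.127), and MAOB without SM4 replicate 1 (−0.717) or SM4 replicate 2 (−0.684). Of 4 other enzymes of the route, GOT2, which can transaminate kynurenine, was lower by −0.12 in SM2 and −0.17 in SM4, and GCDH was higher by 0.20 in SM2. GOT2 lost its SM4 call without SM4 replicate 1 (−0.152) and its SM2 call without NC replicate 1 or 2, SM2 replicate 2 or SM4 replicate 1 (−0.122 to −0.116), with no filter (−0.121) or with only the libraries of the comparison fitted (−0.122). GCDH, which degrades glutaryl-CoA from tryptophan and lysine, was no longer called when NC replicate 1, NC replicate 2 or SM2 replicate 2 was left out (0.139 to 0.218). AADAT, another kynurenine aminotransferase, was at 12.03, 10.9 and 11.5 CPM in NC, SM2 and SM4 and did not pass.

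Of the protein-coding neighbours of KYNU within 1 Mb on chromosome 2, only GTDC1 had reads enough to show a difference. GTDC1, a glycosyltransferase-like gene, was at 20.8 ± 1.10, 19.1 ± 0.574 and 22.2 ± 1.06 CPM, and its log2 fold changes of −0.12 and 0.09 against NC did not pass (adjusted p = 0.22 and 0.367). LRP1B, a large lipoprotein receptor, was at 0.0377 to 0.481 CPM over the 9 libraries, and ARHGAP15 had no reads. GTDC1 was higher in SM4 than in SM2 (0.22, adjusted p = 0.0362), a call lost without SM2 replicate 1 (adjusted p = 0.0958), SM2 replicate 3 (0.0597), SM4 replicate 2 (0.143) or SM4 replicate 3 (0.105), with no filter (0.0547) or with only the libraries of the comparison fitted (0.0536).

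The genes whose log2 CPM followed that of KYNU most closely over the 9 libraries were ME1, PRKX, MSANTD3, BIRC3, MLKL, THBD, PTGS2, DEPDC1, FUCA2 and HKDC1, with Pearson r between 0.985 and 0.993. These are descriptions with no p, since the libraries fall into 3 groups and share the NC libraries. Of 14410 genes ranked, 391 had r above 0.9 and 578 had r below −0.9. PTGS2, which makes prostaglandins, was at 105.2, 89.8 and 104.6 CPM in NC, at 37.6, 39.3 and 34.6 CPM in SM2 and at 33.4, 32.5 and 33.0 CPM in SM4, or 37.3% and 33.0% of NC. ME1, the cytosolic malic enzyme, was at 58.7% and 56.4% of NC, a smaller difference than that of KYNU although its r was the highest. CYP1B1 ranked 13 with r = 0.984. Among the members QPRT was at r = −0.975 (Spearman rho −0.667) and IDO1 at r = −0.882 (rho −0.483).

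**Figure D4:**
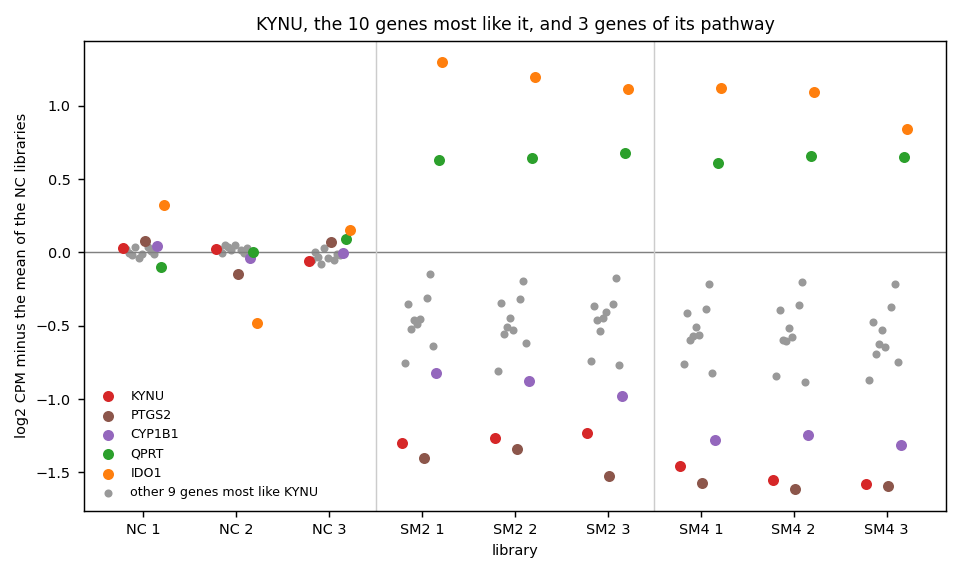
Log2 CPM in each library minus the mean of the NC libraries (vertical axis) for KYNU, the 10 genes most like it, CYP1B1, QPRT and IDO1, by library (horizontal axis). Points are single genes in single libraries. KYNU, PTGS2 and CYP1B1 lie below 0 in all SM2 and SM4 libraries, and QPRT and IDO1 lie above 0 there.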

How the data were processed

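Per the labels and the study's methods, RNA from OVCAR5 cells was sequenced, reads were trimmed with fastp and aligned to hg38 with HISAT2, and the authors deposited 1 table of raw counts per gene from featureCounts (Subread). Tool versions, annotation and strand setting are not given in the sources used here. The labels name a stranded kit with paired reads and the methods another kit with single reads, which was not resolved. Of 60649 identifiers, 60463 matched GENCODE v44, and unmatched ones held at most 0.0444% of a library's counts.

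Counts were analysed in R 4.3.3 with edgeR 4.0.16. Low-count genes were removed (filterByExpr), libraries were scaled by TMM (factors 0.989 to 1.011), and 1 quasi-likelihood fit over the 9 libraries gave the 3 contrasts. Adjusted p-values are Benjamini-Hochberg over all 19674 genes, with calls below 0.05. SE is the standard error of a log2 fold change and intervals are 95%. The test was checked on simulated data with known changes, in fewer genes than were called here. Changes of 1 on the log2 scale were called in 97% of genes in SM2 and 94% in SM4. For changes of 0.5 these shares were 78% and 83%. Smaller changes were not simulated, so that check does not cover the small differences above. Replicate numbers were checked for pairing and do not pair the libraries.

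Members and gene lists were chosen with earlier results of these data known. Genes named are the members, METTL3, called genes of the wider lists with a mean of at least 1 CPM, 10 genes of those lists whatever their values, coding genes within 1 Mb of KYNU, and the 10 genes with the highest Pearson r with it. IRF8 was added after its values were seen. Alternatives were DESeq2 1.42.0 and its size factors, upper-quartile scaling, other filters, a threshold of 0.01, the 6 libraries compared, a replicate block and each library left out. Promoter sequences are from RefSeq. Some items of the lists are not reported here.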

Additional observations from a re-analysis of the deposited data

Results flagged for a closer look

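These genes are given because SM4 differed from SM2 by a test of that difference itself (edgeR, adjusted p over all genes). KYNU was lower in SM4 by −0.263 on the log2 scale (adjusted p = 0.00302) and AHR higher by 0.193 (adjusted p = 0.00374). METTL3, the gene named as target, was higher in SM4 by 0.627 (adjusted p = 7.45e-08), between groups that the labels both call METTL3 knockdowns. Among AHR targets CYP1B1 was at −0.386, NQO1 at 0.205 and ALDH3A1 at 0.595 in log2 fold change. On the interferon-gamma route the log2 fold changes were −0.304 for IFNGR1 and −1.35 for IRF8. SLC7A11 was at 0.481, WARS1 at 0.18, NNMT at −0.321, GCDH at −0.247 and MAOB at −0.766 on the same scale. GTDC1, a neighbour of KYNU, was at 0.216. The GCDH call was lost without SM4 replicate 2 (−0.224) or SM4 replicate 3 (−0.238), that of MAOB without SM2 replicate 1 or 3 or SM4 replicate 1 or 2 (−0.756 to −0.611) or with only the libraries of the comparison fitted (−0.764), and that of GTDC1 without SM2 replicate 1 or 3 or SM4 replicate 2 or 3 (0.182 to 0.211).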

How the results depend on the processing

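IDO1 and QPRT passed against NC in both groups under every alternative run. Members called, KYNU aside, numbered 2 to 3 in SM2 and 2 in SM4, AHR in SM2 being the one lost (at a threshold of 0.01 and without NC replicate 1, NC replicate 2 or SM2 replicate 2). In SM4 against SM2, KYNU included, 2 to 3 were called. The wider genes called in SM2 numbered 9 at a threshold of 0.01 and 9 to 16 when single libraries were left out, with 9 without NC replicate 1 and 9 without NC replicate 2. In SM4 they numbered 10 to 18 when single libraries were left out, with 10 without SM4 replicate 1. The replicate numbers do not pair the libraries: same-numbered deviations correlated at −0.053 to 0.0453, and 5 of 9 libraries correlated best with their own number. With the replicate block the wider genes called were 15, 16 and 11 in SM2, SM4 and SM4 against SM2, against 15, 16 and 10 without it. Under the block LRP1B, at about 0.2 CPM, turned to −0.0428 in SM2 and −0.181 in SM4. Other sign changes came only from leaving out single libraries, in differences that did not pass the test, and the cause was not tested. These log2 fold changes are given as the lowest and highest value over the main fit and all alternatives other than the threshold of 0.01. For SM2 against NC the ranges were −0.0158 to 0.0673 for AFMID, −0.671 to 0.316 for KYAT1, −0.0524 to 0.024 for SLC7A5, −0.203 to 0.0527 for MAOB, −0.0339 to 0.135 for AHRR, −0.184 to 0.249 for CYP1A1 and −0.503 to 0.696 for LRP1B. For SM4 against NC the ranges were −0.376 to 0.0627 for KYAT1, −0.105 to 0.00278 for GCDH and −0.539 to 0.431 for LRP1B. For SM4 against SM2 the ranges were −0.622 to 0.292 for KMO, −0.0239 to 0.00607 for QPRT, −0.487 to 0.495 for KYAT1, −0.0104 to 0.183 for AADAT, −0.0156 to 0.0697 for NAPRT, −0.0185 to 0.00943 for NADK, −0.119 to 0.0509 for TIPARP and −0.7 to 0.513 for LRP1B. Depth limits TDO2, KMO, KYAT1 and HAAO, whose intervals are wide or absent.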
